A study of Arabidopsis thaliana with 34 samples.

Results

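Transcript levels in leaves of the Arabidopsis thaliana accessions Te (Tenela) and Rsch (Rschew) were compared after 3 d at -3 °C. The comparison used the 3 arrays titled Te at 3 d and the 3 titled Rsch at 3 d, 6 of the 34 arrays of the series, and all 22746 probe sets other than the 64 controls. Plants of both accessions were grown for 42 days with a 16 h day at 20 °C by day and 18 °C by night. They were then cold acclimated at 4 °C for 14 days, so every group, the reference leaves included, had been in the cold. Leaves of the 3 d groups were detached and kept in darkness at -3 °C in tubes with water, where the labels state that no ice formed, while the cold acclimated leaves were taken from the 4 °C plants. Darkness, detachment and -3 °C therefore cannot be told apart in a change from the cold acclimated state. Each RNA sample was a pool of 3 leaves from 3 plants, and the labels describe 3 independent biological replicates. The series also holds the accession Col (Columbia-0) and leaves taken after 8 h and 1 d at -3 °C.

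Sub-zero acclimation is a further gain in freezing tolerance that plants make at a few degrees below zero after they have been hardened above zero. Accessions of Arabidopsis differ in how freezing tolerant they are, and also in constitutive traits such as the glucosinolates they make, sulfur-containing defence compounds of the mustard family. A difference between accessions after sub-zero exposure can therefore have been there before or have arisen during the exposure, and the cold acclimated leaves of the same accessions give the values before it.

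Levels are log2 intensities of probe sets, and differences are Te minus Rsch on that scale, so that a positive value is higher in Te. A probe set is called where the Benjamini-Hochberg adjusted p of limma's moderated test, taken over all 22746 probe sets, lies under 0.05. An array reads hybridisation to fixed probes, so a difference in transcript level and a difference in the probed sequence cannot be told apart for a single probe set. In RNA from whole leaves, fewer cells of a type and less RNA per cell cannot be told apart either.

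One array of the comparison did not lie with its label. A score was made from the 501 probe sets that differed by at least 2-fold between 1 d and 3 d in the mean of Col and Rsch, with no Te array used to choose them, 168 higher and 333 lower at 3 d. It is the mean distance of an array from the centre of those probe sets, with positive values toward 3 d. The Te 3 d arrays scored -0.30, 0.77 and 0.76 for replicates 1, 2 and 3, and the Rsch 3 d arrays 1.02, 0.81 and 0.75. The Te 1 d arrays scored 1.00, -0.45 and -0.40, while the Rsch 1 d arrays lay between -0.46 and -0.23. The array labelled Te 3 d replicate 1 thus scored among the 1 d arrays, and the one labelled Te 1 d replicate 1 among the 3 d arrays. The score of -0.30 does not single out 1 d, since the 8 h arrays reached -0.31 and the cold acclimated arrays ran from -0.45 to 0.46. The Col and Rsch arrays at 1 d and 3 d chose the probe sets, so their own separation on the score was fixed in advance. Labels were kept as given, and results are stated with and without Te 3 d replicate 1. The 34 arrays also split by the level of the bioC spike-in control into sets of 9 and 25. In each accession the smaller set held replicate 1 of 3 groups, those at 3 d, at 1 d and when cold acclimated, so this split does not separate Te from Rsch. In that set the actin control read higher at its 3' end over its 5' end, by 2.55 in Te 3 d replicate 1 and 2.49 in Rsch 3 d replicate 1, against 1.30 to 1.61 in the other Te and Rsch arrays at 3 d.

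**Figure D1:**
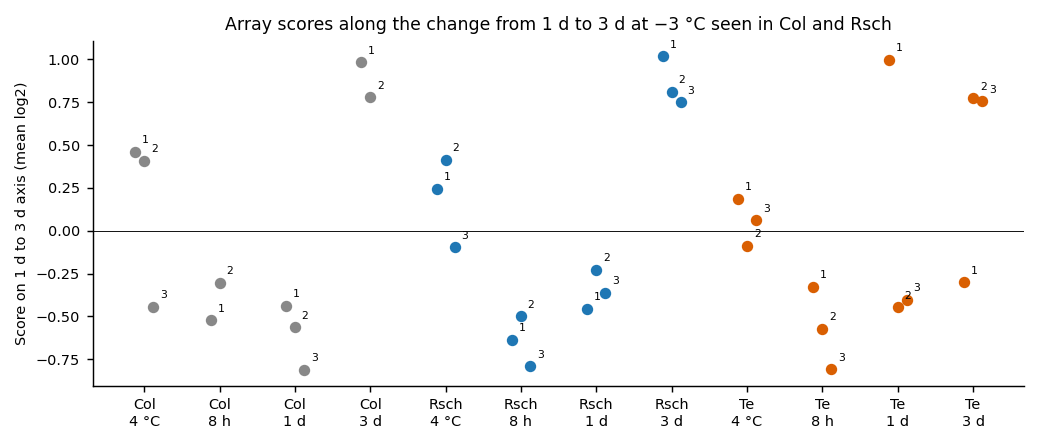
Score of each of the 34 arrays along the change from 1 d to 3 d (vertical axis, mean log2 distance, positive toward 3 d), by accession and condition, with each point numbered by replicate. Te 3 d replicate 1 (-0.30) lies below the other Te 3 d arrays (0.77 and 0.76), and Te 1 d replicate 1 (1.00) lies above the other Te 1 d arrays (-0.45 and -0.40).

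After 3 d at -3 °C, 1043 probe sets (4.59%) were called between the accessions with limma. Of these, 501 (2.2%) were higher and 542 (2.38%) lower in Te, and 231 and 227 of them by at least 2-fold. Of the 1043, 584 probe sets held 1 named gene, 430 were unnamed here and 29 matched several genes. With the doubted Te 3 d replicate 1 left out, 965 probe sets (4.24%) were called, 775 of the 1043 and 190 others. Same-numbered Te and Rsch arrays at 3 d deviated together, and with the replicate number as a block 1706 probe sets were called. A block for the spike-in set gave 1287, and within the larger set, which holds replicates 2 and 3 of both accessions at 3 d, 640 were. Among the called probe sets with at least a 2-fold difference, 152 had a dimmer accession whose mean lay under 5.32, the 40th percentile of all values, a range in which low levels are poorly resolved.

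Much of this difference was present before sub-zero exposure. When cold acclimated, 814 probe sets (3.58%) were called between Te and Rsch, and 459 probe sets were called in both comparisons, 44.0% of those called at 3 d and 56.4% of those called when cold acclimated. All 459 had the same direction at both, 227 higher and 232 lower in Te, and none was called in opposite directions. The median size of their difference was 1.08 when cold acclimated and 1.11 at 3 d, and 233 of them lay farther apart at 3 d. Between the accessions, 1000 probe sets (4.4%) were called at 8 h and 928 (4.08%) at 1 d, from other arrays. Of the 459, 337 were also called at both 8 h and 1 d and 37 at neither. Leaving out Te 3 d replicate 1 gave 419 probe sets in both comparisons, 400 of them among the 459.

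**Figure D2:**
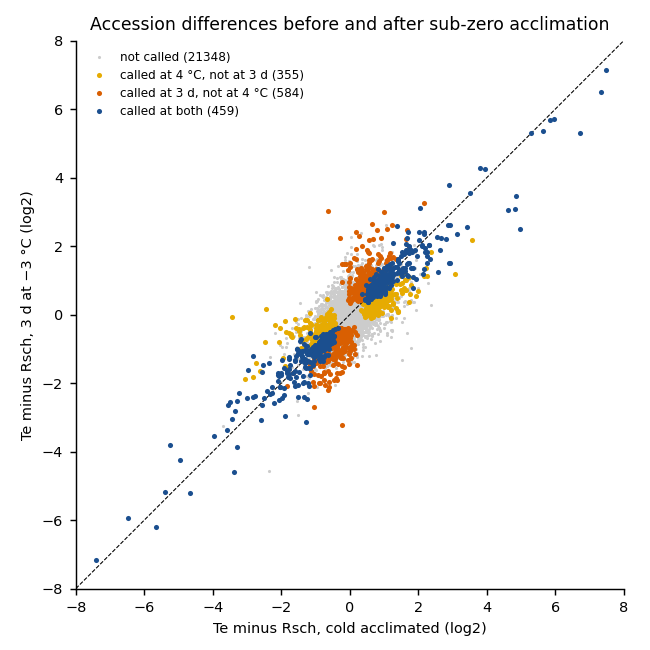
Difference Te minus Rsch (log2) when cold acclimated (horizontal) against that after 3 d at -3 °C (vertical) for each of the 22746 probe sets, coloured by call, with the dashed line where both are equal. The 459 probe sets called in both comparisons follow the dashed line, and the 584 called at 3 d alone lie mostly on the same side of 0 in both.

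The lasting differences with the greatest distance included a gene of glucosinolate side chains. AT2G25450 encodes GSL-OH, the dioxygenase that hydroxylates the butenyl glucosinolate side chain. Its level was 11.41, 11.16 and 11.06 in the Te arrays at 3 d and 4.78, 6.93 and 5.96 in the Rsch arrays. Every Te array lay far above every Rsch array, and Col at 3 d (11.32 and 11.99) was as high as Te. The difference was 5.32 (SE 0.54, limma adjusted p = 3.02e-07), a ratio of 39.9, and it was 5.28 when cold acclimated. AOP1, a dioxygenase gene that neighbours the side-chain genes AOP2 and AOP3, was also higher in Te. Its level was 6.33, 7.45 and 6.43 in Te and 4.43, 3.92 and 4.76 in Rsch, with no overlap. The difference of AOP1 was 2.37 at 3 d (SE 0.34, limma adjusted p = 5.62e-05) and 2.18 when cold acclimated.

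QQS, an orphan gene of Arabidopsis that affects starch content, lasted as a difference while its distance became smaller. Its level at 3 d was 8.29, 8.51 and 8.25 in Te and 4.69, 5.03 and 4.96 in Rsch. The accessions did not overlap, and the Te arrays lay close to each other. The difference of QQS was 3.46 at 3 d (SE 0.30, limma adjusted p = 1.92e-08) and 4.86 when cold acclimated. Te fell by 1.11 from the cold acclimated level (adjusted p = 0.0156), and the change in Rsch was 0.28 (adjusted p = 0.616). The test of the difference between these changes gave an unadjusted p of 0.00316 and an adjusted p of 0.96.

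Other genes were bright in Te and dim in Rsch. AT2G25510, of unknown function, had levels of 12.91, 12.64 and 12.65 in Te and 5.21, 5.94 and 5.62 in Rsch, with Col at 12.94 and 13.04. Its difference of 7.15 at 3 d (SE 0.32) was the highest among the genes named here, against 7.50 when cold acclimated. AT2G15130, of the plant basic secretory protein family, had levels of 10.47, 10.55 and 10.89 in Te and 4.14, 4.27 and 4.04 in Rsch. Here Col (3.96 and 4.32) was as low as Rsch, so Te stood apart from both accessions. The difference of AT2G15130 was 6.49 at 3 d (SE 0.14) and 7.35 when cold acclimated. AT4G32240 differed by 5.72, AT5G52740 of the heavy-metal-associated domain family by 3.79, AT3G60920 of the BEACH domain family by 3.11 and AT2G14460 by 3.09. AT3G60920 lay 1.05 farther apart at 3 d than when cold acclimated (2.06), whereas AT2G14460 had been farther apart when cold acclimated (4.82).

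Genes lower in Te showed the mirror pattern. AT4G29200, annotated as related to beta-galactosidases, had levels of 4.50, 4.62 and 4.51 in Te and 10.69, 10.76 and 10.79 in Rsch. Col (4.08 and 4.40) was as low as Te, so Rsch stood apart. The difference of AT4G29200 was -6.21 at 3 d (SE 0.15, limma adjusted p = 1.95e-20) and -5.65 when cold acclimated. AT3G47320, a pseudogene in the RefSeq annotation, differed by -5.22 and had the same pattern, with Te between 2.70 and 2.80, Col at 2.84 in both arrays and Rsch between 7.69 and 8.34. ECS1, which encodes a cell wall protein, had levels of 5.17, 5.04 and 5.42 in Te and 9.01, 8.63 and 8.05 in Rsch. Its difference was -3.36 at 3 d (SE 0.20), and Col was brighter than both at 11.11 and 10.86. AT4G12490, of the lipid transfer protein family, differed by -2.56 (SE 0.37), with Te at 8.92, 10.21 and 9.93 and Rsch between 12.15 and 12.39. AT5G44570 differed by -3.86, AT5G41660 by -3.04 and AT3G44280 by -2.83.

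AT5G42250, of the zinc-binding alcohol dehydrogenase family, was the lasting difference named here whose distance grew most. Its level at 3 d was 6.76, 6.15 and 5.68 in Te and 9.21, 9.59 and 9.18 in Rsch. All Te arrays lay below all Rsch arrays. The difference was -3.13 at 3 d (SE 0.31, limma adjusted p = 1.67e-07), after -1.28 when cold acclimated, -1.43 at 8 h and -1.94 at 1 d. Rsch rose by 1.26 over the cold acclimated level (adjusted p = 0.0111), and Te changed by -0.59 (adjusted p = 0.235). The difference between these changes had an unadjusted p of 0.000269 and an adjusted p of 0.605, and an adjusted p of 0.0189 with the replicate number as a block. All 16 genes of the plot of lasting differences were called at 3 d under every alternative run on them, without Te 3 d replicate 1 included.

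**Figure D3:**
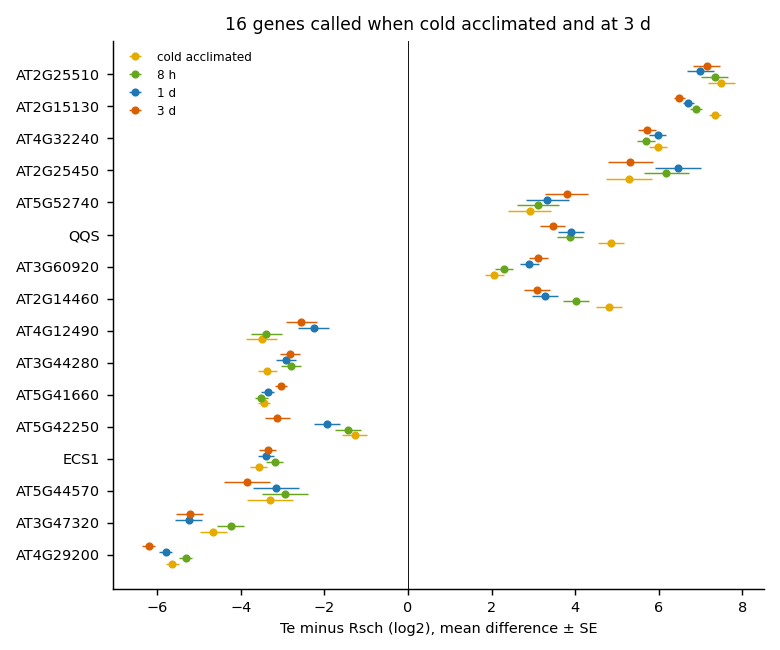
Difference Te minus Rsch (log2, mean with SE) of the 8 highest and 8 lowest named genes called both when cold acclimated and at 3 d, in the 4 conditions. The 4 points of a gene lie on the same side of 0 for every gene. AT5G42250 moves from -1.28 to -3.13 and QQS from 4.86 to 3.46.

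The other 584 probe sets called at 3 d were not called when cold acclimated, 274 of them higher and 310 lower in Te. The difference reached 2-fold in 102 of the higher and 92 of the lower ones. A missed call does not show that the accessions were equal beforehand, and the values show that most were not centred on 0. The median size of the difference, taken in the 3 d direction, was 0.80 at 3 d, 0.38 when cold acclimated, 0.39 at 8 h and 0.46 at 1 d. In 549 of the 584 (94.0%) the cold acclimated difference had the sign of the 3 d difference, against 66.5% of all tested probe sets. At 8 h, 89 of the 584 were called in the same direction, at 1 d 137, and at neither 410. The same count without Te 3 d replicate 1 was 546, and 375 of the 584 were still called at 3 d. With the replicate number as a block the count was 1033.

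Whether the 2 accessions changed differently between the cold acclimated state and 3 d was tested directly with limma. No probe set was called (0%), and the smallest adjusted p was 0.113, while 804 probe sets (3.53%) had an unadjusted p under 0.05. Among the 584 probe sets, 184 (31.5%) had an unadjusted p under 0.05, but the choice of the 584 uses the same 3 d arrays, so this share supports nothing. Over the alternatives run, between 0 and 4 probe sets were called. When Te 3 d replicate 1 was left out the only call (0.0044%) was a probe set that is unnamed here. It differed by 5.07 at 3 d without that array and by 6.73 when cold acclimated. Within accessions, 2975 probe sets (13.1%) changed from the cold acclimated state to 3 d in Te and 2158 (9.49%) in Rsch. Those counts were 3409 (15%) and 2310 (10.2%) without Te 3 d replicate 1.

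AT3G46280, annotated as related to receptor-like protein kinases, had the lowest unadjusted p for the difference between changes among the genes called at 3 d and not when cold acclimated. Its level when cold acclimated was 3.95, 3.96 and 4.00 in Te and 3.92, 4.38 and 4.26 in Rsch. At 3 d it was 4.45, 4.71 and 4.63 in Te and 7.49, 8.52 and 7.43 in Rsch, with Col at 7.92 and 9.30. Rsch and Col were bright at 3 d, and the Te arrays remained under the 40th percentile of 5.32. In Rsch AT3G46280 rose by 3.63 (limma adjusted p = 2.01e-05), and the Te change of 0.62 was not called (adjusted p = 0.369). The difference Te minus Rsch was -0.22 when cold acclimated, -0.45 at 8 h, -1.64 at 1 d and -3.22 at 3 d (SE 0.41, adjusted p = 1.06e-05). The difference between the changes had an unadjusted p of 2.32e-05 and an adjusted p of 0.151. It was called with the replicate number as a block (adjusted p = 0.0177) and with the Te and Rsch arrays alone in the fit (adjusted p = 0.0314). The 3 d difference was -3.14 (adjusted p = 0.000126) without Te 3 d replicate 1.

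AT5G28430, a pseudogene in the RefSeq annotation whose probe set carries the suffix for probes shared between transcripts, moved in the other direction. When cold acclimated its level was 6.27, 7.50 and 6.11 in Te and 6.69, 7.96 and 7.13 in Rsch, so the arrays overlapped. At 3 d it was 9.69, 8.89 and 8.74 in Te and 6.53, 6.43 and 5.32 in Rsch. All Te arrays were above all Rsch arrays at 3 d. The difference of AT5G28430 went from -0.63 when cold acclimated to 2.23 at 8 h, 2.63 at 1 d and 3.01 at 3 d (SE 0.51, limma adjusted p = 0.000426). Te rose by 2.48 (adjusted p = 0.00235), and Rsch changed by -1.17 (adjusted p = 0.153). The test of the difference between changes gave an adjusted p of 0.151, and of 0.0177 with the replicate block.

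ASPGB1, an asparaginase that releases ammonium from asparagine, was called at 1 d and 3 d. Its level at 3 d was 8.71, 9.71 and 9.07 in Te and 6.13, 6.57 and 6.83 in Rsch. The Te arrays lay above all Rsch arrays and above Col (7.23 and 7.56). The difference was 0.66 when cold acclimated, 1.74 at 1 d and 2.65 at 3 d (SE 0.38, limma adjusted p = 4.80e-05). Te rose by 2.23 (adjusted p = 0.000443), and the Rsch change was 0.24 (adjusted p = 0.75). The difference between changes had an unadjusted p of 0.000956 and an adjusted p of 0.774.

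AT2G16890, of the UDP-glycosyltransferase family, had levels of 10.60, 10.51 and 10.63 in Te at 3 d and 7.59, 7.56 and 7.57 in Rsch. Both groups were tight at 3 d, and Col (10.57 and 10.65) lay with Te. The difference of AT2G16890 was 1.01 when cold acclimated and 3.01 at 3 d (SE 0.58, limma adjusted p = 0.00171). AT1G54740 differed by -2.71 (SE 0.44, adjusted p = 0.000232), with Te at 4.13, 4.77 and 4.44 and Rsch at 7.10, 6.72 and 7.66. Col at 3 d split between them for AT1G54740, at 4.26 and 6.09. AT4G28085 (2.41), SKU5 (-1.97) and the defensin gene PDF1.4 (-1.96) were called at 3 d. These 3 were not called without Te 3 d replicate 1, with adjusted p of 0.117 for AT4G28085, 0.08 for SKU5 and 0.0997 for PDF1.4. SKU5 encodes a cell wall and membrane protein of the multicopper oxidase-like family that acts in directional root growth.

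**Figure D4:**
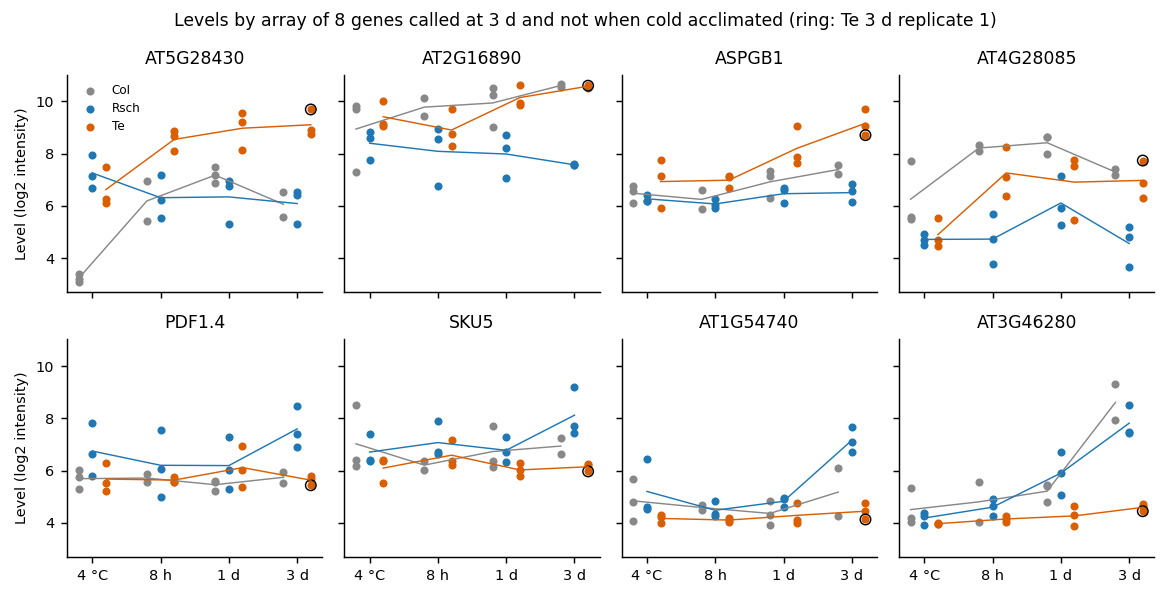
Level (log2 intensity) of 8 genes called at 3 d and not when cold acclimated, by array, in the 4 conditions and 3 accessions; lines join group means and a ring marks Te 3 d replicate 1. AT3G46280 is bright at 3 d in Rsch (7.43 to 8.52) and Col but not in Te (4.45 to 4.71), and AT5G28430 is above the other accessions in Te at 3 d.

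Further genes were picked after their values were seen. AT1G34200, AT4G09760, AT1G35280 and AT3G14820 were picked by the lowest unadjusted p for the difference between changes. AT4G25790 was picked because it was called in that test with the Te 3 d and Te 1 d replicate 1 arrays left out. AT1G34200, of the glucose-fructose oxidoreductase family, had levels of 8.57, 9.09 and 9.37 in Te at 3 d and 7.01, 7.09 and 7.28 in Rsch. Its difference was 0.51 when cold acclimated and 1.88 at 3 d (SE 0.22, limma adjusted p = 3.79e-06). AT4G09760 had levels of 8.50, 8.58 and 8.89 in Te and 7.27, 7.18 and 6.99 in Rsch, and the accessions were apart by 0.00 when cold acclimated and 1.51 at 3 d. Rsch fell by 1.11 there (adjusted p = 0.00705), and the Te change was 0.40. AT4G25790, of the cysteine-rich secretory CAP family, had levels of 5.72, 7.74 and 6.68 in Te and 4.90, 4.58 and 4.65 in Rsch. Te 3 d replicate 1 was the lowest of its Te arrays. The 3 d difference of AT4G25790 was 2.01 with that array and 2.50 without it. The difference between changes was called where both the Te 3 d and the Te 1 d replicate 1 arrays were left out (adjusted p = 0.00164), and not otherwise. AT1G35280 (-0.89) and AT3G14820 (-0.44) were dim in both accessions.

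Gene groups were read as 49 lists holding 339 distinct measured genes. With limma 24 of the 339 (7.08%) were called at 3 d, beside 580 of 13350 measured genes (4.34%), and 26 without Te 3 d replicate 1. The lists were chosen with earlier results of these data known, so the higher share is no evidence about them. The share of all genes with an unadjusted p under 0.05 at 3 d was not counted. Counts of such p within the lists therefore stand without a reference and are not read as results about a list. The median difference over all genes was -0.03. The CBF and COR cold regulon list holds cold-response genes that include the CBF factors and genes they switch on. Of its 27 entries 7 were measured, COR15A, COR15B, COR47, COR27, COR28, ZAT10 and LTI30. The CBF genes, RD29A, KIN1 and KIN2 were among those not named here, so the regulon was read only in part. None of the 7 was called at 3 d, none had an unadjusted p under 0.05, and their median difference was 0.00. COR15A, which protects chloroplast membranes during freezing, had levels between 13.07 and 13.20 in all 6 arrays, near the bright end of the scale. COR15B, its neighbouring homologue, was called lower in Te when cold acclimated (-1.17, adjusted p = 0.0106). At 3 d its difference was -0.46 (adjusted p = 0.451), with Te at 11.48, 11.02 and 11.17 and Rsch at 11.57, 11.89 and 11.59. COR15B rose in Te by 1.14 (adjusted p = 0.00614), and the Rsch change was 0.43 (adjusted p = 0.349). Of the 5 measured dehydrin and LEA genes, which overlap with that list, none was called at 3 d and none had an unadjusted p under 0.05.

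The 7 measured genes of the anthocyanin and flavonol list all had positive differences at 3 d, with a median of 1.23. None was called by limma, and 4 had an unadjusted p under 0.05. Without Te 3 d replicate 1 all 7 were still above 0, with a median of 0.99, and 2 had an unadjusted p under 0.05. UGT78D3, which shares the UGT78D symbol with UGT78D1 and UGT78D2 of this list, was not in it. UGT78D3 was called lower in Te (-1.70, limma adjusted p = 0.0253), also without Te 3 d replicate 1 (-1.89, adjusted p = 0.0294). DFR, the dihydroflavonol reductase of the anthocyanin branch, had levels of 10.60, 9.35 and 8.88 in Te and 6.66, 8.38 and 7.69 in Rsch. The Te arrays lay above the Rsch arrays, and Te 3 d replicate 1 was the brightest. The difference of DFR was 2.03 (SE 0.68, adjusted p = 0.0947), and 1.54 (adjusted p = 0.319) without that array. AT4G14090, the anthocyanin 5-O-glucosyltransferase UGT75C1, had levels of 9.31, 8.09 and 8.11 in Te and 5.81, 6.47 and 7.05 in Rsch. Its difference was 2.06 (SE 0.67, adjusted p = 0.0807). From the cold acclimated state AT4G14090 fell by 2.38 in Te (adjusted p = 0.0193) and by 3.52 in Rsch (adjusted p = 0.00175). The genes of anthocyanin synthesis work as 1 pathway, so their shared sign is not independent evidence from each.

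In aliphatic glucosinolate synthesis 2 of 7 measured genes were called, AT2G25450 and AOP1, both higher in Te as given above, and the median of the 7 was -0.13. BCAT4, which starts methionine chain elongation, had levels of 9.86, 8.43 and 8.59 in Te and 10.14, 9.06 and 10.70 in Rsch, which overlapped. Its difference was -1.01 (adjusted p = 0.183) with all arrays, and BCAT4 was called at -1.45 (adjusted p = 0.04) without Te 3 d replicate 1. Among starch, sucrose and raffinose genes 2 of 7 were called, QQS and SWEET17, a vacuolar fructose transporter. SWEET17 had levels of 5.58, 7.00 and 6.61 in Te and 4.05, 4.91 and 5.25 in Rsch, and differed by 1.66 (SE 0.45, adjusted p = 0.0293).

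The list of photosystem and antenna genes had 46 members, which included ndh genes of the NDH complex and pet genes of the cytochrome b6f complex. Its medians are therefore not those of photosystem and antenna genes alone. Of the 46, 1 was called, psbM, a small photosystem II subunit encoded in the chloroplast. Its level was 12.07, 11.75 and 12.16 in Te and 10.49, 10.61 and 11.13 in Rsch, with a difference of 1.25 (SE 0.24, limma adjusted p = 0.00165) and of 0.30 when cold acclimated. The 46 were split by the genome that encodes them after their values had been seen. Of the 36 chloroplast genes 28 lay above 0, with a median of 0.54, and of the 10 nuclear genes 1 lay above 0, with a median of -0.28. Without Te 3 d replicate 1 the medians were 0.35 and -0.51, with 24 of 36 and 1 of 10 above 0. When cold acclimated the medians were 0.03 and -0.42. Replicate 1 was bright in both accessions for the nuclear genes, whose mean level was 9.41, 8.59 and 8.89 in Te and 9.84, 8.90 and 9.09 in Rsch. The mean level of the chloroplast genes was 9.55, 8.80 and 9.37 in Te and 8.88, 8.30 and 8.98 in Rsch, which overlapped. Replicate 2 was the lowest in both accessions there. Chloroplast genes that move together by array do not give independent evidence from each.

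The called autophagy genes were lower in Te, as was IVD, an enzyme of leucine breakdown. Of 10 measured autophagy genes 2 were called, ATG8D and ATG8B, which encode ubiquitin-like proteins of the autophagosome membrane. ATG8D had levels of 7.80, 7.54 and 7.87 in Te and 8.89, 8.80 and 9.03 in Rsch, without overlap. Its difference was -1.17 (SE 0.18, limma adjusted p = 0.000153), after -0.64 (adjusted p = 0.0488) when cold acclimated. ATG8B differed by -0.99 (adjusted p = 0.0428), a call lost without Te 3 d replicate 1 (adjusted p = 0.193). The median of the 10 was -0.27, and 1 of them lay above 0. IVD, isovaleryl-CoA dehydrogenase of leucine breakdown, had levels of 6.86, 6.28 and 6.79 in Te and 7.94, 7.75 and 7.93 in Rsch. Its difference was -1.23 at 3 d (SE 0.19, adjusted p = 0.000205), -0.49 when cold acclimated, 0.07 at 8 h and 0.05 at 1 d. MCCB, a subunit of methylcrotonoyl-CoA carboxylase in the same pathway, differed by -0.72 (adjusted p = 0.0504) and was called at -0.99 (adjusted p = 0.0049) without Te 3 d replicate 1. MCCA, the other subunit, differed by -0.46 (adjusted p = 0.35) and, without that array, by -0.64 (adjusted p = 0.18). IVD was the 1 called member of the 6 measured genes of dark and sugar starvation.

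The lists of defence and cell wall genes were measured only in part. Measured were 3 of 35 entries for resistance genes, 3 of 32 for salicylic acid and 8 of 37 for jasmonate. For cell wall modifying enzymes 5 of 25 entries were measured, and for indole glucosinolates and camalexin 0 of 20. AT4G12010 and LOV1, both of the nucleotide-binding resistance gene family, were lower in Te, 2 of the 3 measured members. AT4G12010 had levels of 5.74, 6.05 and 5.88 in Te and 7.23, 7.19 and 6.87 in Rsch, differed by -1.21 (SE 0.16, limma adjusted p = 1.78e-05) and had differed by -1.57 when cold acclimated. LOV1 differed by -0.60 (adjusted p = 0.0221). Among 15 defensins PDF1.4 was the 1 called. Without Te 3 d replicate 1 it was not, as given above, and PDF1B was called in its place (-1.15, adjusted p = 0.035). The jasmonate and ethylene marker PDF1.2 showed how wide 1 group can be. Its level was 8.74, 3.37 and 7.86 in Te and 10.72, 11.41 and 11.55 in Rsch, a difference of -4.57 (SE 1.60) that was not called (adjusted p = 0.112). XTH20, a xyloglucan endotransglucosylase/hydrolase of the cell wall, was the 1 called of 9 XTH genes. Its level at 3 d was 5.33, 4.79 and 4.05 in Te and 5.72, 5.91 and 6.98 in Rsch. XTH20 rose in Rsch by 2.57 (adjusted p = 4.86e-05), changed by 0.88 in Te (adjusted p = 0.069) and differed by -1.48 at 3 d (SE 0.32, adjusted p = 0.00523) after 0.21 when cold acclimated. None of 14 expansins was called, with 2 at an unadjusted p under 0.05, and none of 5 other cell wall modifying enzymes, with 0.

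Channels, regulators and conjugating enzymes gave the remaining calls. Over all measured genes 4.34% were called at 3 d, and list counts near that share are not read as results about a family. Of 8 glutamate receptor-like channels 2 were higher in Te. GLR2.7 differed by 2.63 (SE 0.57, limma adjusted p = 0.00567), with Te at 8.03, 8.73 and 8.41 and Rsch at 5.11, 6.80 and 5.38, and by 2.87 when cold acclimated. GLR3.3, known for long-distance wound signalling, differed by 0.63 (adjusted p = 0.043), and by 0.54 (adjusted p = 0.153) without Te 3 d replicate 1. AGL19, a MADS-box factor that promotes flowering after cold, differed by -1.32 (SE 0.30, adjusted p = 0.0072), and by -1.99 when cold acclimated. AGL19 was dim at 3 d apart from Rsch replicate 3, with Te at 3.48, 4.00 and 3.65 and Rsch at 4.57, 4.64 and 5.89. The size of its difference is therefore poorly resolved. EIN3, the main transcription factor of ethylene signalling, was higher in Te by 0.56 (SE 0.13, adjusted p = 0.0105). WRKY42 differed by -1.65 (adjusted p = 0.0212), a call lost without Te 3 d replicate 1 (adjusted p = 0.0778), and the dim BZIP61 by -0.48 (adjusted p = 0.0379), which was lost too (adjusted p = 0.107). GSTU15 (-1.64), 1 of 14 glutathione S-transferases, and CYP71B24 (-1.17), 1 of 23 cytochromes P450, were lower in Te and had been so when cold acclimated. The P450 count was 2 of 23 without Te 3 d replicate 1, where CYP71B28 was also called (-0.78, adjusted p = 0.0379). Of 47 UDP-glycosyltransferases counted by symbol, UGT78D3 (-1.70) was called lower and UGT71C5 (0.53) higher. Leaving out Te 3 d replicate 1 gave 1 lower and 3 higher, with UGT72E1 (1.28, adjusted p = 0.0115) and UGT71C2 (0.98, adjusted p = 0.0155) gained. BGLU44 (-1.09) and BGLU42 (-0.69) were called lower among 20 beta-glucosidases, of which 4 lay above 0. In the lists of heat shock (6 genes), jasmonate (8), calmodulin-like (7), auxin (7), U-box (9) and unfolded protein (5) genes, no member was called by limma. That held with and without Te 3 d replicate 1. Beside the 4.34% of all measured genes, the lack of a call among so few genes is not read as a result about them. Of these 42 genes, 5 had an unadjusted p under 0.05.

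**Figure D5:**
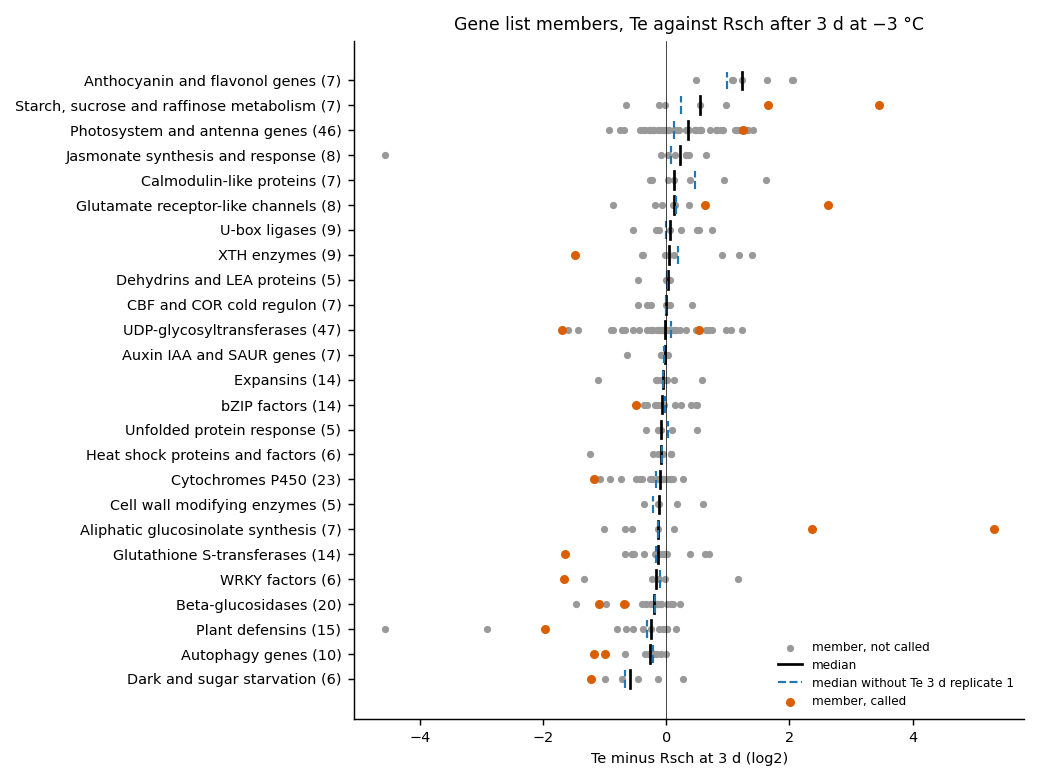
Difference Te minus Rsch at 3 d (log2) of each member of the gene lists with 5 or more measured genes, the number measured in brackets, with called members in orange, the list's median as a black bar and the median without Te 3 d replicate 1 as a dashed blue bar. The anthocyanin and flavonol list has the highest median (1.23, and 0.99 without that array), with no member called.

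A few genes were decided by single arrays. Te 3 d replicate 3 lay at least 4-fold above all the other 5 arrays at 3 d in 20 probe sets, and Te 3 d replicate 1 in 16, against 0 for Te 3 d replicate 2 and 1 to 4 for the Rsch arrays. Some genes of the low oxygen response were among those of replicate 3. Of the 4 measured genes of that list none was called with all arrays, and 1, AT5G10040, was called without Te 3 d replicate 1. AT5G10040, known as HUP9 and induced by hypoxia, had levels of 3.10, 3.12 and 9.34 in Te and 2.97 to 3.36 in Rsch. AT3G10040, the hypoxia response attenuator HRA1, had levels of 3.80, 3.93 and 9.95 in Te and 5.55, 3.97 and 3.88 in Rsch. AT5G66985 showed the same shape, at 3.73, 4.05 and 9.68 in Te. Only 1 Te array was high for each of these 3. In the other low oxygen genes measured, Te 3 d replicate 3 was the highest array at 3 d but did not stand 4-fold apart. PDC2, a pyruvate decarboxylase, had levels of 11.55, 11.03 and 11.62 in Te and 10.51, 11.29 and 10.77 in Rsch. Replicate 3 of Te thus lay hardly above replicate 1 for PDC2. AT1G19530 had levels of 6.01, 7.28 and 10.84 in Te and 9.74, 7.53 and 8.65 in Rsch, so both groups were wide and overlapped. Without Te 3 d replicate 1 AT5G10040 was called at 3.03 (limma adjusted p = 0.0409) and AT5G66985 at 3.31 (adjusted p = 0.0191). Without Te 3 d replicate 3 their differences were -0.09 (adjusted p = 0.93) and 0.33 (adjusted p = 0.791). AT4G26460 behaved alike, with 5.65 in Te 3 d replicate 3 and between 2.70 and 3.09 in the other 5 arrays.

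Without Te 3 d replicate 1, 190 probe sets were called at 3 d that were not called with it, and the highest and lowest named genes among them were examined. AT2G43140, of the bHLH transcription factor family, had levels of 6.28, 7.63 and 7.74 in Te and 4.83, 6.44 and 5.01 in Rsch. Its difference was 1.80 (adjusted p = 0.0501) with all arrays and 2.26 (adjusted p = 0.0194) without replicate 1. AT2G43140 rose in Te by 2.93 (adjusted p = 0.000823), and its change in Rsch was 1.06 (adjusted p = 0.222). AT1G21440, AT4G01390, AT4G18930 and 4CL8 were called lower in Te without that array, at -1.61, -1.52, -1.64 and -2.05. In each of these 4 genes Te 3 d replicate 1 was the brightest of the Te arrays, for example 6.98 against 4.45 and 5.58 for 4CL8. Choosing genes called lower only without that array favours this pattern, so it is no evidence about the array.

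The tissue label was read against marker genes. RCA and PRK, enzymes of the leaf's Calvin cycle, and PSAN, a photosystem I subunit, were the measured leaf mesophyll markers, and none was called at 3 d, with or without Te 3 d replicate 1. PRK, for example, lay between 8.63 and 10.77 in the 6 arrays, with Te 3 d replicate 1 the brightest. The median difference of the 3 was -0.15, with 0 at an unadjusted p under 0.05, and -0.76 without that array, with 2. The differences without it were -0.76 for PRK (adjusted p = 0.241), -1.21 for PSAN (adjusted p = 0.262) and -0.08 for RCA (adjusted p = 0.928). The part of this shift in the other results was not tested. Of the markers of guard cells, trichomes, phloem, root, seed, flower and meristem 11 were measured, none was called, and all lay between 3.33 and 5.92 in the 6 arrays, as for FAMA of guard cells (5.02 to 5.92) and ANX1 of pollen (3.33 to 3.81).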

How the data were processed

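RNA of 34 leaf samples in 12 groups was measured on 34 Affymetrix ATH1 arrays. The deposited values are log2 intensities made with RMA, per the submitters' processing notes; its version is not given in the sources used here, and RMA brings all arrays to 1 distribution, so each level is relative. Array medians lay between 5.97 and 6.22, and the number of arrays limits the precision. Titles gave the groups and replicate numbers, also for the cold acclimated replicates 3, to which a second label gives the number 2.

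With limma 3.58.1 in R 4.3.3, a linear model with 1 mean per group was fitted to the 34 arrays (22 residual degrees of freedom, two-sided tests), without a filter, for the 22746 probe sets other than 64 controls. It was tested on simulated data. Alternatives changed the filter, scaling, arrays, weights, variance model, blocks and call rule. Same-numbered Te and Rsch arrays at 3 d deviated together (correlations of 0.16, 0.13 and 0.16), against -0.13 to 0.00 for different numbers. The data are the source of this pairing. The cold acclimated ones gave 0.27, 0.05 and 0.24, against -0.36 to 0.21 for different numbers, so there the ranges overlapped.

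Genes were named from a platform annotation, updated through a RefSeq table of TAIR10.1 used for names alone. Of the tested probe sets 13513 held 1 gene (13436 matched to RefSeq), 503 several, and 8730 were unnamed here. Named were the 8 highest and 8 lowest genes called in both states, the 4 highest and 4 lowest called at 3 d alone, up to 3 called members of each gene list or else the member with the largest difference, the 4 highest and 4 lowest called only without Te 3 d replicate 1, and cold marker genes. Of 24 lists defined by symbol patterns 7 matched no gene. The members and lists were chosen with earlier results of these data known.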

Additional observations from a re-analysis of the deposited data

How the results depend on the processing

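The number of arrays and the doubted Te 3 d replicate 1 limit these results, and dim probe sets limit the folds. The counts of probe sets called between Te and Rsch by limma (1043 at 3 d, 814 cold acclimated, 459 in both, 584 at 3 d alone, 1000 at 8 h, 928 at 1 d) stayed within 1.5 times of these values under a filter on dim probe sets, quantile normalization, median centring, leaving out shared probe sets, another variance model and the spike-in set as a block. Array weights gave 2032 at 3 d, 711 in both, 1321 at 3 d alone and 1671 at 1 d. The replicate number as a block gave 1706 at 3 d, 1033 at 3 d alone and 1599 at 8 h, and moved no other of these counts by over 1.5 times. The larger spike-in set gave 640 at 3 d, 497 cold acclimated, 258 in both, 382 at 3 d alone and 403 at 1 d. A 2-fold minimum gave 458, 378, 229, 229, 438 and 401 in the order first listed. It can only remove calls from a comparison, but 194 of its 229 at 3 d alone were among the 584, since it also removes cold acclimated calls. Leaving out 1 array at 3 d or cold acclimated gave 631 to 1063 at 3 d, 470 to 815 cold acclimated (852 without both doubted Te arrays, labelled Te 3 d and Te 1 d replicate 1), 336 to 419 in both and 270 to 725 at 3 d alone. No 8 h or 1 d array was left out by itself, so the dependence of the 8 h and 1 d counts on single arrays was not tested; without both doubted Te arrays they were 1046 and 649. Counts moved by over 1.5 times without Te 3 d replicate 2 (631 at 3 d, 270 at 3 d alone) and, at 3 d alone, without Te 3 d replicate 3 (357), Rsch 3 d replicate 1 (340) and Rsch 3 d replicate 3 (378). The cold acclimated count moved so without Te cold acclimated replicate 2 (541), replicate 3 (470) and Rsch cold acclimated replicate 1 (542). Leaving out 1 array leaves 1 sample fewer, and the other causes were not tested. The difference between the accessions' changes had 0 calls, and 2 with the Te and Rsch arrays alone, 4 with array weights, 3 with the replicate block, 1 in the larger spike-in set, 2 without both doubted Te arrays, and 0 to 2 without 1 array (1 without Te 3 d replicate 1, 1 without Rsch 3 d replicate 1, 2 without Rsch 3 d replicate 2 and 1 without Rsch cold acclimated replicate 2). Of these, among probe sets called at 3 d alone, were 1 with the Te and Rsch arrays alone, 1 with array weights, 2 with the block, 1 without both doubted arrays and 0 to 1 without 1 array (1 without Rsch 3 d replicate 2). For the 88 named genes, none of which reversed direction when called, 1930 repeats kept the call or its absence, 106 lost a call and 61 gained one.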

Other observations

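A further set was called between Te and Rsch when cold acclimated and not at 3 d, 355 probe sets, 204 higher and 151 lower in Te at 3 d by sign. The median size of their difference, taken in the 3 d direction, was 0.81 when cold acclimated and 0.43 at 3 d. The genes below are the 4 highest and 4 lowest named ones by the cold acclimated difference, a choice made after values had been seen. AT1G10585 had levels of 4.47, 3.93 and 5.24 in cold acclimated Te and 7.13, 8.88 and 7.96 in Rsch, without overlap. At 3 d it was at 8.85, 9.48 and 9.86 in Te and 8.03, 10.16 and 10.23 in Rsch, which overlapped. Its difference was -3.44 (SE 0.65, limma adjusted p = 0.00158) when cold acclimated and -0.08 (adjusted p = 0.979) at 3 d. AT5G62360, of the pectin methylesterase inhibitor family, had levels of 8.34, 5.46 and 5.36 in cold acclimated Te and 10.57, 7.93 and 7.98 in Rsch, and lay between 12.15 and 12.78 in all 6 arrays at 3 d. XTH33, a xyloglucan endotransglucosylase/hydrolase, had levels of 10.27, 8.38 and 6.79 in cold acclimated Te and 4.65, 5.37 and 6.22 in Rsch, and its difference was 3.07 (SE 0.86, adjusted p = 0.0429) when cold acclimated and 1.18 at 3 d. AT2G24160 (2.24), a transcribed pseudogene in the RefSeq annotation, AT3G56360 (1.98), AT3G19680 (1.93), AT1G09500 (-2.63) and AT5G22580 (-2.04) were the others, with their cold acclimated differences. None of the 8 was called in the test of the difference between the accessions' changes, where AT1G10585 had the lowest adjusted p (0.81).

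The unnamed probe set with the lowest adjusted p for the difference between changes (0.113) was bright in Te and dim in Rsch throughout. Its level was 9.95, 9.91 and 9.97 in cold acclimated Te and 9.14, 8.66 and 8.16 at 3 d, against 3.09 to 3.36 in cold acclimated Rsch and 3.00 to 3.62 at 3 d. AT5G56380 had levels of 7.39, 7.49 and 7.82 in cold acclimated Te and 4.44, 4.80 and 4.65 in Rsch. At 3 d it was at 6.71, 6.71 and 6.62 in Te and 5.10, 5.32 and 5.07 in Rsch. Its difference went from 2.94 to 1.52, and the difference between changes had an adjusted p of 0.151, of 0.0314 with the Te and Rsch arrays alone and of 0.0358 with array weights.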
